A study of Rattus norvegicus with 6 samples.

Results

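The genes described here encode the proteasome, the cytosolic chaperonin and the heat shock proteins with their J-domain cofactors, in pancreatic islets of the rat before and after birth. They were taken by symbol: every gene of the deposited table named Psma to Psmg, Cct, Hsp or Dnaja, Dnajb or Dnajc followed by a number, without the 3 endoplasmic reticulum stress genes Hspa5, Hsp90b1 and Dnajb9 and without the small heat shock and perlecan symbols. This gave 106 of the 18625 named genes: 45 Psm, 9 Cct, 12 Hsp and 40 Dnaj genes. The rule reads symbols and no measured value, but it was chosen with earlier results of these data known. The fetal group was islet cells of embryonic day 19 (E19; 3 libraries) and the postnatal group islet cells of young rats (3 libraries), titled 2 weeks but labelled postnatal week 2, 3 and 4 for replicates 1, 2 and 3. Genotype, strain, sex and treatment are not stated in the labels. Nothing in the labels ties a library to an animal of its own, so each p-value weighs a difference against the spread of these libraries only, part of which may be technical. Hsp90aa1, Hspe1, Hspa1a, Hspa1b, Hspa13, Psma7, Psmb3, Psmd10, Psmd14 and Psme4 are not analysed here.

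The proteasome is the barrel-shaped protease (the 20S core, with outer alpha and inner beta rings) that degrades proteins tagged with ubiquitin, which the 19S cap recognises and unfolds. Where interferon acts, 3 catalytic beta subunits are replaced by immunoproteasome counterparts, which favour peptides for antigen presentation. The CCT chaperonin folds actin and tubulin, and the HSP90, HSP70 and DnaJ families fold, hold and refold other proteins. HSP70 works in cycles that a J-domain protein starts and a nucleotide exchange factor such as an HSP110 ends. Part of these genes is induced by heat shock factor 1 when unfolded proteins accumulate, and others are made at all times. Islet endocrine cells, which make large amounts of secreted hormone, depend on protein folding and quality control.

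Values are reads scaled by library size after TMM normalization, called scaled CPM here. The fetal libraries held 26.1 to 37.8 M reads and the postnatal ones 28.2 to 29.5 M, which makes 3 reads equal to 0.0726 to 0.152 scaled CPM. The islet hormone genes took 0.214% to 0.612% of the fetal and 4.06% to 11.0% of the postnatal reads. The libraries were not pure islet: 10 acinar enzyme genes took 5.59% to 7.44% of the fetal reads and 34.1%, 19.0% and 17.2% of the reads of postnatal replicates 1, 2 and 3. Hepatocyte markers stood high in fetal replicate 2 (summed level 6441 scaled CPM, against 179 and 306 in the other fetal libraries). The 6 proliferation markers all fell (median log2 fold change -2.47), as did the 6 ribosomal protein genes listed as a gauge of RNA output (-1.01) and the 8 measured erythroid genes (-1.94). The part of these shifts in the results was not tested. In bulk islets, fewer cells of a type and less RNA per cell cannot be told apart.

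Across the 99 members with enough signal to test, 64 fell after birth, 14 rose and 21 did not pass the test (limma on log2(value + 1), Benjamini-Hochberg adjusted over all 12926 genes tested, called under 0.05). Among all genes tested 63.1% were called, 30.0% as higher and 33.1% as lower. The median log2 fold change (postnatal minus fetal) was -0.74 over the members and -0.03 over all genes. Falls of at least 2-fold were seen in 33 members and rises of that size in 5, where 12.1% and 14.8% of all genes fell and rose that far. In 81 members the fetal and postnatal libraries did not overlap, against 70.0% of all genes. Without fetal replicate 2 and postnatal replicate 1 together, 62 members fell and 12 rose. With every library scaled to the same total the split was 68 lower and 4 higher, on a scale where the median of all genes moved to -0.36; there the calls of 10 risers (Cct6b, Dnajb2, Dnajb4, Dnajb5, Dnajb13, Dnajc4, Dnajc27, Hspa12b, Hspa1l and Hspa2) were lost. Of these, Cct6b and Dnajb13 entered the test mainly through their postnatal libraries. Scaled without the 20 highest genes, where the median of all genes was 0.21, 57 members fell and 21 rose.

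**Figure D1:**
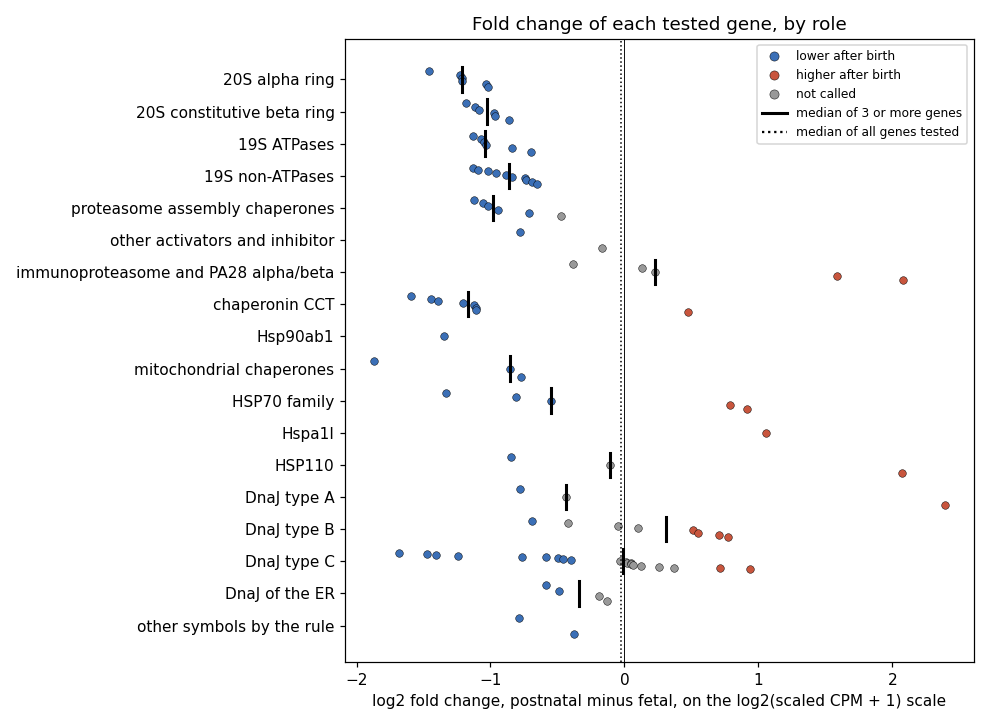
Log2 fold change (postnatal minus fetal, log2(scaled CPM + 1) scale, horizontal axis) of the 99 tested members, 1 point each, by role (vertical axis), with colour for the call, a bar for the median of groups of 3 or more genes and a dotted line at -0.03, the median of all genes. The constitutive proteasome groups all lie below zero, between -1.46 and -0.65. The immunoproteasome, HSP110 and DnaJ type A, B and C groups spread over both sides, up to 2.39 for Dnaja4. The DnaJ genes of the endoplasmic reticulum lie between -0.59 and -0.13.

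All 28 measured subunits of the constitutive 20S core and 19S cap fell, and in each of them the fetal and postnatal libraries did not overlap. Their fold changes lay between -1.46 and -0.65 with a median of -1.03 and an SD across genes of 0.19, against an SD of 1.05 across all genes tested. The summed level of the 28 genes was 3431, 3927 and 4380 scaled CPM in fetal replicates 1, 2 and 3 and 2069, 1753 and 1992 in postnatal replicates 1, 2 and 3. As a share of all reads they took 0.429%, 0.429% and 0.463% before birth and 0.140%, 0.181% and 0.198% after it. Each of the 28 calls was kept under all 20 alternative settings, with the same sign.

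The alpha ring, which gates the entrance of the core, had the lowest median of the 4 groups (-1.22 over 6 genes), a difference from the others that was not tested. Its largest fall was that of Psma5, at 117, 135 and 162 scaled CPM in the fetal and 50.9, 47.9 and 48.4 in the postnatal libraries. The groups were far apart, a log2 fold change of -1.46 ± 0.13 (SE; limma, adjusted p = 8.19e-05). The smallest fall of the ring was that of Psma3l (-1.02), the name under which the table lists the subunit matched to Psma3.

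In the constitutive beta ring (6 genes, median -1.03), the 3 subunits that carry the catalytic sites all fell. Psmb5, the chymotrypsin-like subunit, stood at 82.1, 98.8 and 103 scaled CPM before and 49.7, 37.9 and 42.1 after birth (log2 fold change -1.11 ± 0.13). Psmb6, the caspase-like subunit, stood at 108, 132 and 148 before and 66.4, 48.4 and 54.5 after birth (-1.19 ± 0.16). Psmb7, the trypsin-like subunit, stood at 113, 130 and 142 before and 67.7, 60.0 and 67.1 after birth (-0.97 ± 0.11). In all 3 genes the lowest fetal library lay above the highest postnatal one. The structural subunits Psmb1, Psmb2 and Psmb4 changed by -0.97, -1.08 and -0.86.

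The base of the 19S cap holds 6 ATPases that unfold substrates, and all fell (median -1.04). Psmc2 had the largest fall, from 152, 173 and 199 scaled CPM to 82.7, 71.7 and 82.3 (-1.13 ± 0.12), and Psmc5 the smallest (-0.70 ± 0.10). The 10 non-ATPase subunits had a median of -0.86. Psmd12, a lid subunit, fell from 96.4, 104 and 113 to 54.4, 41.4 and 46.2 scaled CPM (-1.13 ± 0.12). Psmd4, a receptor for ubiquitin chains, fell least, from 89.5, 104 and 106 to 69.9, 58.5 and 61.6 (-0.65 ± 0.11; adjusted p = 0.00155). Even at Psmd4 the groups did not overlap. Ribosomal protein genes, another large complex, had a like median (-1.01).

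**Figure D2:**
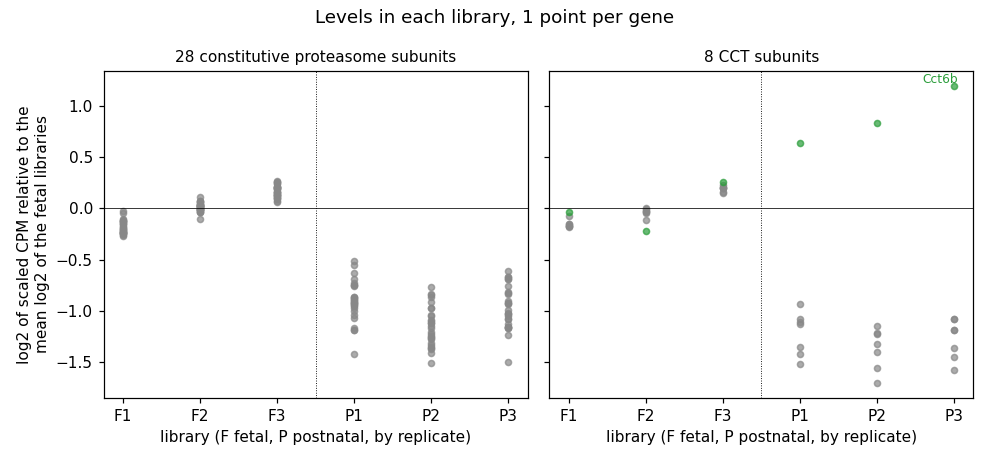
Log2 of scaled CPM in each library relative to the gene's mean log2 level in the fetal libraries (vertical axis), for the 28 constitutive proteasome subunits (left) and 8 CCT genes (right), 1 point per gene, F for fetal and P for postnatal replicates (horizontal axis). Every proteasome subunit lies lower in the 3 postnatal than in the 3 fetal libraries, and in the CCT panel Cct6b alone lies above.

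Of 6 assembly chaperones, which guide the rings and the base together, 5 fell (median -0.98), with Psmd5 largest (75.8, 87.1 and 96.7 against 39.9, 34.7 and 42.9 scaled CPM; -1.12 ± 0.13). Psmg4 did not pass the test (-0.48 ± 0.19, adjusted p = 0.0635 with limma). It stood at 18.7, 12.3 and 10.7 scaled CPM in the postnatal libraries, with replicate 1 inside the fetal range of 18.3 to 19.9. Without postnatal replicate 1 it changed by -0.70 (adjusted p = 0.00203). Psme3, a nuclear activator cap, fell from 56.3, 55.4 and 58.4 to 37.8, 31.4 and 29.4 scaled CPM (-0.78 ± 0.11). The inhibitor Psmf1 did not pass the test (-0.17 ± 0.11, adjusted p = 0.201). Psmc3ip stood at 12.3, 11.3 and 13.1 scaled CPM before and 7.29, 6.44 and 6.25 after birth. It and Psme3ip1, which the symbol rule takes in although they encode no proteasome subunit, changed by -0.79 and -0.38. The call of Psme3ip1 was lost in 3 of the 20 alternatives, among them leaving out fetal replicate 2 (-0.35; limma, adjusted p = 0.051). Over the alternatives its change was as small as -0.15.

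Among 17 measured partners of the proteasome on a list of 20, 12 fell, 1 rose and 4 did not pass the test (median -0.76). The cap's deubiquitinase Uchl5 had the largest fall (-1.57 ± 0.16), and the core maturation factor Pomp fell by 1.08 on the log2 scale. The 1 riser was Nfe2l1, the transcription factor that raises proteasome genes when the proteasome is impaired. It stood at 57.4, 54.9 and 53.3 scaled CPM before and 83.7, 97.3 and 102 after birth (0.76 ± 0.10; adjusted p = 0.000529), while its relative Nfe2l2 fell (-0.53 ± 0.11). With every library scaled to the same total, no partner was called higher.

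NFE2L1 binds antioxidant response elements, and the promoters of the constitutive subunits were searched for the core of that element. The letters were TGACNNNGC on either strand, in RefSeq windows of the rat assembly GRCr8 that run from 250 bases before to 50 bases after the start of a gene. The core was found in 6 of the 26 constitutive subunits with a window (23.1%), against 13.1% of all 27457 promoters. In the beta ring it was found in Psmb2, Psmb5 and Psmb6. Their last 100 bases before the start are shown with the core in capitals, because 2 of these genes are the catalytic subunits described above. They lie at chr15:32047380-32047479 (minus strand) for Psmb5, chr10:55737788-55737887 (plus strand) for Psmb6 and chr5:144254958-144255057 (plus strand) for Psmb2.
Psmb5: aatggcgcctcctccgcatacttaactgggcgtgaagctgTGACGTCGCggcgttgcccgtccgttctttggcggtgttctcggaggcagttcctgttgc
Psmb6: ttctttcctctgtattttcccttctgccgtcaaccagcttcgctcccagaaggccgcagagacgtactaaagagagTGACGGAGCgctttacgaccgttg
Psmb2: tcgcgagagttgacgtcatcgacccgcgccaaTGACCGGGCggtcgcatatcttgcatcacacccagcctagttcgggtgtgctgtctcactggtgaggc
A match describes the letters only. The fold changes of these 3 genes (-1.11, -1.19 and -1.08) lay within the range of the other 25 subunits.

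Of the 3 immunoproteasome subunits 2 rose. Psmb8, which replaces Psmb5 in the immunoproteasome, stood at 1.66, 3.78 and 1.14 scaled CPM in the fetal and 10.2, 14.1 and 11.1 in the postnatal libraries. It rose by a log2 fold change of 2.08 ± 0.29 (SE; limma, adjusted p = 0.000626), with no overlap; its low level makes this size depend on the pseudocount (1.23 with 5). Psmb9, which replaces Psmb6, stood at 2.09, 2.90 and 1.36 before and 6.78, 8.57 and 9.29 after birth (1.58 ± 0.21, adjusted p = 0.000527), again with no overlap and with a size that depends on the pseudocount (0.89 with 5). Both calls were kept under all 20 alternatives. Psmb10, which replaces Psmb7, did not pass the test (-0.39 ± 0.32, adjusted p = 0.318). It stood at 37.8, 57.1 and 67.8 before and 65.7, 30.6 and 31.99 after birth. Its high postnatal value was that of replicate 1, the library with the largest acinar share (34.1% of reads). Replicate 1 is also the youngest postnatal library by its label, and acinar share and age cannot be told apart here. Without postnatal replicate 1, Psmb10 changed by -0.73 (limma, adjusted p = 0.0209), and without any other library by -0.62 to -0.20 with no call.

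The ratio of each immunoproteasome subunit to the subunit it replaces was compared within libraries, where library scaling cancels. These are ratios of scaled CPM with no correction for gene length, so that only their change between groups is read. Psmb8/Psmb5 was 0.0202, 0.0382 and 0.0111 in the fetal and 0.206, 0.371 and 0.264 in the postnatal libraries, a 13.3-fold difference of the mean log2 ratios. Psmb9/Psmb6 was 0.0192, 0.0220 and 0.00915 before and 0.102, 0.177 and 0.170 after birth, a 9.27-fold difference. For both, every postnatal ratio was above every fetal one, and the exact permutation test, run two-sided, gave p = 0.1, the smallest that 3 against 3 libraries can give (0.15 adjusted over the 3 ratios). Psmb10/Psmb7 was 0.334, 0.441 and 0.477 before and 0.969, 0.510 and 0.477 after birth, and the groups overlapped (1.496-fold; exact permutation p = 0.2). The mean log2 ratio of Psmb8 to Psmb5 was -5.61 ± 0.89 (SD, n = 3) before and -1.88 ± 0.43 (SD, n = 3) after birth. These ratios carry no pseudocount. The sizes for Psmb8 and Psmb9 rest on low fetal levels (1.14 to 3.78 and 1.36 to 2.90 scaled CPM) and would shrink with one.

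The PA28 genes Psme1 and Psme2, whose products form an interferon-inducible cap of the core, did not pass the test. Psme1 stood at 65.7, 71.2 and 62.9 scaled CPM before and 70.2, 75.3 and 73.8 after birth (0.13 ± 0.09, adjusted p = 0.230). Psme2 stood at 30.8, 34.6 and 33.2 before and 40.4, 37.5 and 38.04 after birth (0.23 ± 0.09, adjusted p = 0.0666). The Psme2 groups did not overlap. It was called with edgeR on the recovered reads (0.28, adjusted p = 0.0301) and with DESeq2 (0.28, adjusted p = 0.0185). With every library scaled to the same total, Psme1 and Psme2 changed by -0.21 and -0.12.

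Interferon-stimulated response elements on either strand were found in the promoter windows of 3 of these 5 genes, Psmb8, Psmb10 and Psme2, against 4.12% of all promoters. They were also found in 2 of 26 constitutive subunits (7.69%), Psma4 and Psmd7, which both fell. Over all members the count was 8 of 94 (8.51%). The 3 stretches are shown with the element in capitals because these genes share the letters and yet differ in their fold changes. They lie at chr20:4657022-4657121 for Psmb8, chr19:50743293-50743392 for Psmb10 and chr15:33052752-33052851 for Psme2, all on the minus strand.
Psmb8: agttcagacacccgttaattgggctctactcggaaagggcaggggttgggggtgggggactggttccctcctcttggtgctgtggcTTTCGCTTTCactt
Psmb10: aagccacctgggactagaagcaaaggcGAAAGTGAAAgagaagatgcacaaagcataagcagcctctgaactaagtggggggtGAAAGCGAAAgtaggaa
Psme2: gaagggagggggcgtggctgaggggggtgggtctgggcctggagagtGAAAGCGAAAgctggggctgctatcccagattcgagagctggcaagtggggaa
In Psmb8 the element runs across the start of the gene, from base -4, whereas Psmb10 holds 2 of them, from bases -73 and -17. In Psme2 it begins at base -53. Of the 3 genes shown, Psmb8 rose, and Psmb10 and Psme2 did not pass the test. Psmb9 rose without the element in its window. The gamma interferon activated site was also searched and found in 5.32% of members with a window, against 9.39% of all promoters. It was found in 1 of these 5 genes, Psmb8, and in 3 of 26 constitutive subunits. The CCAAT box, searched as well, was found in 46.8% of members with a window, against 39.6% of all promoters.

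Of 13 other genes of interferon response and antigen processing on a list, 12 were tested and called higher, beside 30.0% of all genes tested. Nlrc5 is 1 of these and entered the test through its postnatal libraries alone (under 1 scaled CPM in all fetal ones), so its call adds nothing to the count. With every library scaled to the same total, 10 of the 12 were called. Tap1, a peptide transporter gene that lies between Psmb8 and Psmb9, stood at 3.99, 5.74 and 3.76 scaled CPM before and 13.9, 19.1 and 17.5 after birth (1.70 ± 0.19). Irf1, a transcription factor of the interferon response, rose most, from 19.99, 21.0 and 12.6 to 84.7, 178 and 234 (3.05 ± 0.36). B2m, the shared light chain of class I molecules, rose by 2.12 ± 0.24. Ifng itself had no read in 5 of the 6 libraries. Leukocytes also express these genes, so their markers stand beside this result. Of 9 tested, 2 were called higher (Csf1r, 0.92, and Cd74, 2.90), a share of 22.2%. The other 7 did not pass the test, and the median was 0.33. The summed level of 12 leukocyte genes was 133, 170 and 170 scaled CPM before and 216, 360 and 194 after birth. Most of the fetal sums came from Lcp1, which did not pass the test (0.03). Lcp1 stood at 79.8, 102 and 137 before and 132, 102 and 88.1 after birth, so the sums say little about the other genes. Ptprc, the pan-leukocyte marker, stood at 5.86, 7.48 and 2.497 before and 6.88, 27.7 and 12.1 after birth. Its change of 1.29 and that of Laptm5 (1.09) were near the threshold (limma, adjusted p = 0.0513 and 0.0529). The rest of the 7 changed by 0.03 to 0.33. Among the postnatal libraries, replicate 2 was highest for Ptprc and Psmb8, and replicate 3 for Psmb9 and Irf1. Cd3e, which marks T cells, stayed between 0 and 0.619 scaled CPM. The part of leukocytes in these rises was not tested.

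**Figure D3:**
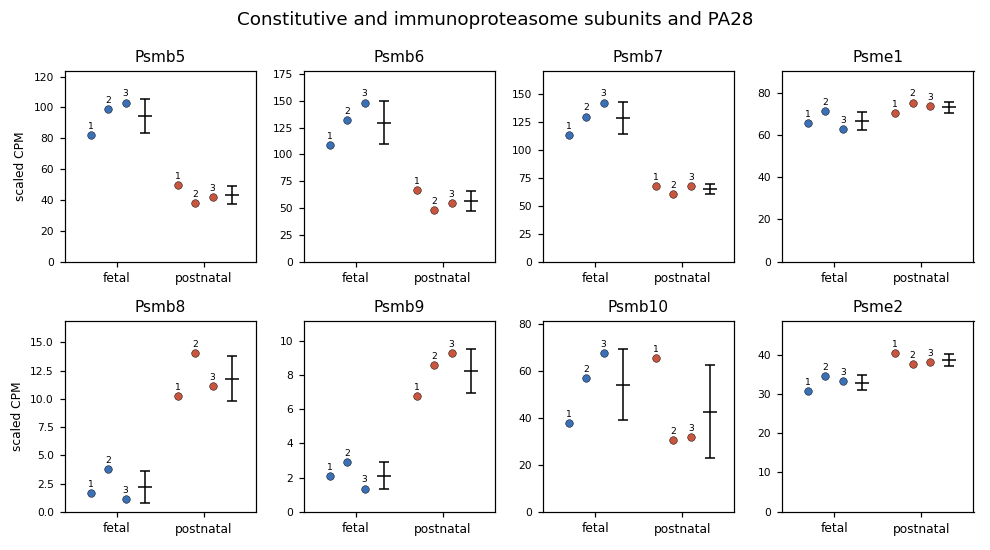
Scaled CPM (vertical axis, from 0) in each fetal and postnatal library (numbered by replicate) of 3 constitutive catalytic subunits, their immunoproteasome counterparts below them and the PA28 pair, with mean ± SD beside the points (n = 3). Psmb5, Psmb6 and Psmb7 are lower after birth, Psmb8 and Psmb9 higher, and Psmb10 overlaps at postnatal replicate 1.

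The CCT chaperonin is a double ring of related subunits, and 7 of the 8 tested Cct genes fell (median -1.16). Cct3 fell most, from 367, 407 and 453 scaled CPM to 143, 125 and 137 (-1.59 ± 0.12; limma, adjusted p = 4.53e-05). Cct8 and Cct6a fell by 1.44 and 1.39 on the log2 scale. Cct5 stood at 526, 575 and 682 before and 270.7, 237 and 260.1 after birth (-1.21 ± 0.13). Cct2, Cct7 and Cct4 changed by -1.12, -1.11 and -1.11. The remaining ring subunit, Tcp1, is outside the symbol rule and fell by 1.57 on the log2 scale. Thus every measured subunit of the somatic ring was lower in each postnatal library than in any fetal one.

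Cct6b, the testis counterpart of Cct6a, was called higher at a very low level: 0.829, 0.726 and 1.02 scaled CPM before and 1.32, 1.51 and 1.95 after birth (0.48 ± 0.16, adjusted p = 0.0333). It passed the expression filter through its postnatal libraries, and 7 alternatives lost the call, among them leaving out fetal replicate 1 or 2 or postnatal replicate 2 or 3 (0.38 to 0.50, adjusted p 0.0716 to 0.109). A list of 13 partners held prefoldin and phosducin-like genes, which hand clients to the ring, and also Tcp1, Mkks, Bbs10 and Bbs12. Of the 13, 7 fell, 1 rose and 5 did not pass the test (median -0.29). The falls include those of the ring subunit Tcp1 (-1.57) and of Mkks (-0.92), and Bbs12 did not pass the test. The riser, Bbs10, changed by 0.38 ± 0.14 (adjusted p = 0.0458), a call lost when any library but fetal replicate 3 was left out.

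The HSP90 gene measured, Hsp90ab1, is the constitutive cytosolic form. It stood at 2286, 2165 and 2559.6 scaled CPM in the fetal and 873, 943 and 937 in the postnatal libraries. The groups were far apart (-1.34 ± 0.17; limma, adjusted p = 0.000422). Among 21 tested heat shock factors and cochaperones, 16 fell, 1 rose and 4 did not pass the test (median -0.72). Stip1, the adaptor between HSP70 and HSP90, fell by 1.37 on the log2 scale (SE 0.12), and the HSP90 cochaperones Ptges3 and Ahsa1 fell by 1.13 and 0.88. Hsf1, the heat shock factor that switches on the inducible genes, did not pass the test (-0.05 ± 0.10, adjusted p = 0.703). Its transcript level does not report its activity.

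The mitochondrial chaperones fell, and Hspd1 fell most of all 99 tested members. Hspd1, the HSP60 chaperonin of the matrix, stood at 869, 863 and 1060.1 scaled CPM before and 268, 235 and 256 after birth (-1.87 ± 0.13, adjusted p = 4.3e-05). Hspa9, the matrix HSP70, fell from 367, 403 and 469.6 to 261, 199 and 225 (-0.85 ± 0.15). Its J-domain partner Dnaja3 fell by 0.77 on the log2 scale, and the exchange factors Grpel1 and Grpel2 from the partner list by 0.95 and 1.36. In these 3 members the groups did not overlap.

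Heat shock elements on either strand were found in the windows of 5 of 94 members, against 0.794% of all promoters. The genes were Hspa8, Hspd1, Cct4, Dnaja1 and Hsph1. The windows of Hspd1 and Hsph1 are shown with the elements in capitals because their fold changes were far apart. They lie at chr9:64084188-64084287 (minus strand, the first 100 bases of the window) for Hspd1 and chr12:10427268-10427367 (plus strand, the last 100 bases before the start) for Hsph1.
Hspd1: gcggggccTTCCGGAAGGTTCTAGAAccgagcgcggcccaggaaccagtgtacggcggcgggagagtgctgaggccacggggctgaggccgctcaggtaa
Hsph1: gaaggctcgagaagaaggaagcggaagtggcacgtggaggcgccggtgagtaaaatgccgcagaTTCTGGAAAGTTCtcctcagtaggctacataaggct
In Hspd1 the capitals hold 2 overlapping elements, 1 on each strand. Of the 5 genes with the letters, Hspd1, Cct4 and Hspa8 were called lower, whereas Dnaja1 and Hsph1 did not pass the test.

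The HSP70 family in the cytosol changed in both directions. Hspa8, the constitutive HSC70, stood at 3594, 3869.6 and 5101 scaled CPM before and 2039, 2401 and 2707 after birth (-0.81 ± 0.27, adjusted p = 0.0333). The groups did not overlap, but leaving out any 1 of the 6 libraries ended the call (adjusted p 0.0507 to 0.102), and 10 of the 20 alternatives did so. Hspa14 fell from 57.4, 59.7 and 74.2 to 25.01, 24.5 and 24.2 (-1.33 ± 0.12). Hspa14 works at the ribosome with Dnajc2, and Dnajc2 fell by a like amount (-1.41 ± 0.11). Hspa12a was called lower (-0.54 ± 0.19), a call lost in 11 alternatives, among them leaving out any library but postnatal replicate 2 (-0.60 to -0.35, adjusted p 0.0539 to 0.0893).

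Of the cytosolic HSP70 genes, 3 were called higher. Hspa2, best known from germ cells, stood at 10.01, 6.34 and 5.30 scaled CPM before and 10.6, 16.4 and 15.9 after birth (0.91 ± 0.25, adjusted p = 0.013), with postnatal replicate 1 close to the highest fetal value. Hspa12b, known from endothelium, rose by 0.79 ± 0.19. Hspa1l stood at 61.5, 67.4 and 53.5 before and 85.5, 159 and 151 after birth (1.06 ± 0.23, adjusted p = 0.00489). The groups did not overlap, and postnatal replicate 1 was the lowest of its group. Hspa1l lies beside the near-identical stress-inducible genes Hspa1a and Hspa1b, and its reads are uncertain because the counting could share them among these copies. With every library scaled to the same total, its change was 0.71 (adjusted p = 0.112).

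The HSP110 exchange factors had 3 different outcomes. Hspa4 fell from 295, 293 and 345 scaled CPM to 172, 162 and 183 (-0.84 ± 0.11). Hspa4l rose from 4.08, 3.92 and 2.44 to 13.9, 16.3 and 23.7 (2.07 ± 0.23, adjusted p = 0.000246), and its call was kept under all 20 alternatives. Hsph1, the stress-inducible member, stood at 241, 178 and 200.7 before and 128, 228 and 236 after birth. Its groups overlapped (-0.11 ± 0.24, adjusted p = 0.717).

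Hsph1, Dnajb1 and Dnaja1, known as genes that heat shock induces, did not pass the test, and all 3 were lowest in postnatal replicate 1. Dnajb1, the main cytosolic J-domain partner of inducible HSP70, stood at 230.0, 215 and 263 scaled CPM before and 126, 209 and 204 after birth (-0.42 ± 0.20, adjusted p = 0.101), groups that did not overlap. Dnaja1 stood at 279.5, 252 and 300.5 before and 151, 215 and 260.5 after birth (-0.44 ± 0.19, adjusted p = 0.082), and was called lower without postnatal replicate 3 (-0.62, adjusted p = 0.0235). Without postnatal replicate 1, Dnaja1 and Dnajb1 changed by -0.23 and -0.19. Bag3, an HSF1-induced cochaperone and the 1 riser of its list, stood at 5.99, 4.28 and 2.74 before and 10.1, 18.7 and 20.6 after birth (1.70 ± 0.31, adjusted p = 0.0021), with postnatal replicate 1 again lowest in its group. The 7 measured immediate early genes, which islet isolation can induce, had summed levels of 1542, 1311 and 1370 scaled CPM before and 991, 1734 and 2113 after birth. Of these 3 rose, 1 fell and 3 did not pass the test. Postnatal replicate 1, the youngest postnatal library by its label, was the lowest library for Hsph1, Dnajb1, Dnaja1 and this sum. The parts of handling stress and of age were not tested and cannot be told apart here.

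**Figure D4:**
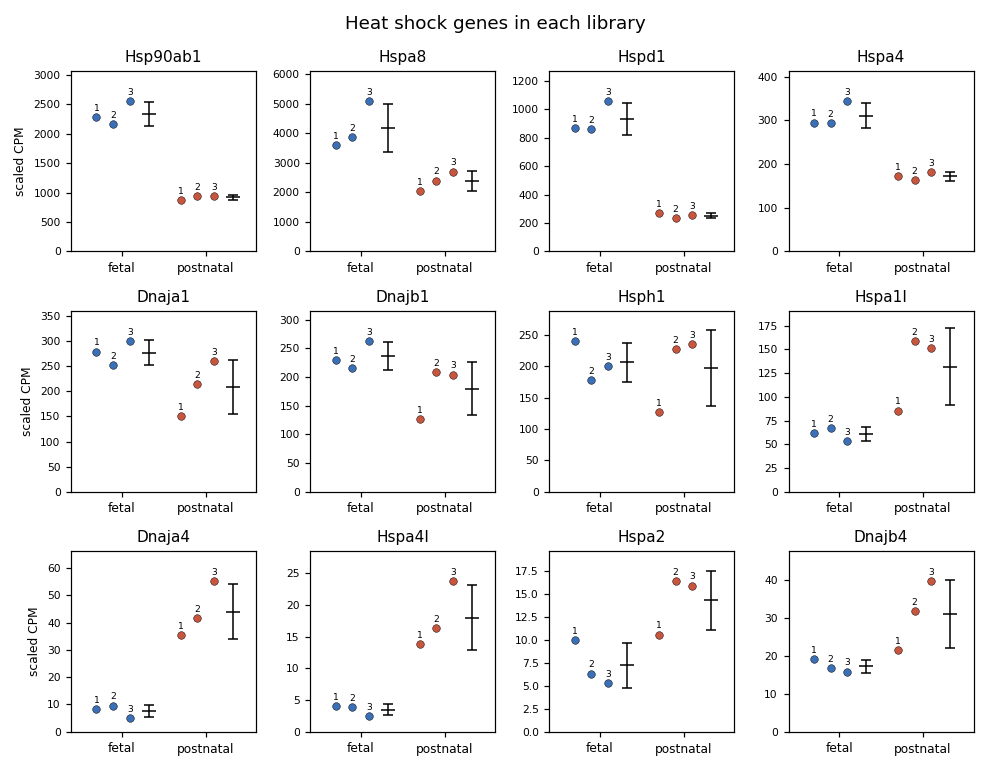
Scaled CPM (vertical axis, from 0) of 12 heat shock genes in each fetal and postnatal library, numbered by replicate, with mean ± SD beside the points (n = 3). Hsp90ab1, Hspa8, Hspd1 and Hspa4 are lower after birth, Hspa1l, Dnaja4, Hspa4l, Hspa2 and Dnajb4 higher, and Dnaja1 and Hsph1 overlap between the groups; Dnajb1 does not overlap but did not pass the test.

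The DnaJ genes changed in both directions: of 36 tested, 14 fell, 7 rose and 15 did not pass the test (median -0.09). As shares these are 38.9% lower and 19.4% higher, beside 33.1% and 30.0% of all genes tested. Dnaja4 had the largest rise of all members, from 8.23, 9.63 and 5.12 scaled CPM to 35.3, 41.5 and 55.1 (2.39 ± 0.24; limma, adjusted p = 0.000145). The postnatal libraries stood well above the fetal ones, and the call was kept under all 20 alternatives. Its relative Dnaja2 fell from 109, 116 and 137 to 66.2, 67.2 and 75.4 (-0.78 ± 0.12), with no overlap.

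The falling type C genes named here, apart from Dnajc9, were picked after their values were seen and stand for no theme. Dnajc9, which guards newly made histones H3 and H4, fell from 104, 112 and 129 scaled CPM to 36.0, 34.7 and 34.1 (-1.68 ± 0.11, adjusted p = 2.59e-05), the largest fall of the family. It stands beside the 6 proliferation markers, whose median was -2.47. Dnajc2, the ribosome-bound partner of Hspa14, fell from 70.4, 69.6 and 86.0 to 27.4, 28.4 and 27.2. Dnajc8 and Dnajc17, linked to splicing, changed by -0.59 and -0.40, the latter a call lost in 8 alternatives. Leaving out fetal replicate 2 or 3 or postnatal replicate 2 or 3 gave Dnajc17 adjusted p-values of 0.0562 to 0.101. Dnajc7, a cochaperone of HSP70 and HSP90, changed by -0.49.

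Dnajc15, of the inner membrane, stood at 27.4, 34.8 and 40.7 scaled CPM before and 13.9, 9.98 and 11.0 after birth (-1.48 ± 0.18). Dnajc11, a protein tied to the cristae, fell from 90.7, 91.8 and 93.2 to 46.4, 35.8 and 33.9 (-1.24 ± 0.13). Dnajc19, of the import motor of the inner membrane, changed by -0.76 ± 0.17. In these 3 genes the groups did not overlap. Dnajc30, also mitochondrial, did not pass the test (-0.03 ± 0.16, adjusted p = 0.882).

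Of 4 J-domain genes of the endoplasmic reticulum, Dnajb11 and Dnajc10 fell (-0.59 ± 0.15 and -0.49 ± 0.11), though Dnajc10 was not called when scaled without the 20 highest genes (-0.25, adjusted p = 0.0557). Dnajc1 and Dnajc3 did not pass the test (-0.19 and -0.13; adjusted p = 0.161 and 0.618). Dnajb11 stood at 96.6, 111 and 109 scaled CPM before and 86.2, 58.2 and 68.1 after birth, without overlap. Dnajc1 was called lower without postnatal replicate 1 (-0.28, adjusted p = 0.038). Dnajc3 stood at 134, 172 and 188 scaled CPM before and 203, 118 and 138 after birth. The highest value was again that of postnatal replicate 1, which had the largest acinar share and was the youngest postnatal library by its label. Acinar cells carry a dense endoplasmic reticulum. The parts of acinar cells and of age in these values were not tested and cannot be told apart here.

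The risers of types B and C were of low to moderate level. Dnajc27, a gene with both a J domain and a Rab-like GTPase domain, rose from 12.9, 13.6 and 11.3 to 20.8, 24.95 and 29.7 scaled CPM (0.94 ± 0.15). Dnajb4 rose from 19.2, 16.8 and 15.9 to 21.6, 31.9 and 39.7 (0.77 ± 0.21). Dnajb2, the neuronal HSJ1, rose from 20.7, 23.6 and 22.2 to 30.2, 33.8 and 34.8 (0.55 ± 0.11). Dnajb5, Dnajc4 and the cilium gene Dnajb13 changed by 0.70, 0.72 and 0.51, and Dnajb13 passed the expression filter through its postnatal libraries. Its call was lost without fetal replicate 2 or 3 or postnatal replicate 2 or 3 (0.41 to 0.52, adjusted p 0.0663 to 0.0962). In the opposite direction, Dnajb3 fell from 4.18, 2.69 and 3.27 to 1.42, 1.58 and 2.08 scaled CPM (-0.69 ± 0.18; -0.32 with pseudocount 5), and was not called when scaled without the 20 highest genes (-0.58, adjusted p = 0.0566). Dnajc25 changed by -0.46, a call that 9 alternatives lost, among them leaving out fetal replicate 2 or 3 or postnatal replicate 2 or 3 for Dnajc25 (-0.45 to -0.36, adjusted p 0.0983 to 0.141). Dnajc5, the cysteine string protein of secretory vesicles, did not pass the test (0.05 ± 0.11, adjusted p = 0.701), with 27.5, 29.7 and 28.7 before and 26.6, 29.7 and 33.3 after birth.

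A further 7 members were too low to test. Dnajc5b and Dnajc5g had no read in any library, and Cct8l1, Dnajb7, Dnajb8, Psma8 and Psmb11 stayed under 1 scaled CPM in every library. Psma8 and Psmb11 are the core subunits known from testis and thymus. Psmb11 stood at 0.184, 0.194 and 0.216 scaled CPM before birth and at 0.0506, 0.103 and 0 after it.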

How the data were processed

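Total RNA from freshly isolated rat islets was sequenced as stranded, ribosomal RNA-depleted libraries, per the labels' protocols. The authors deposited 1 table with an expression signal per gene and library. The submitters' processing notes list TopHat2 2.0.8b and edgeR 3.30.3 without their roles; the build, annotation, counter and strand setting appear in none of the sources used. Each deposited signal was a whole number of reads times 1 constant per library (100% of values within 0.001 reads). Recomputed TMM factors matched these constants, so the values are called scaled CPM. A row without a gene name held at most 3.19e-05% of a library and was left out. Overlapping, antisense and near-identical genes cannot be separated with certainty.

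A two-sided limma fit (version 3.58.1, R 4.3.3) with a mean-variance trend, no robust step and the group as its only term was run on log2(value + 1). Genes entered with a value of 1 or more in 3 or more libraries. Benjamini-Hochberg adjustment covered all of these genes, with calls under 0.05. Fold changes on this scale understate the change of low genes. The values turned out to be recoverable reads, and edgeR 4.0.16 and DESeq2 1.42.0 on those reads serve as alternatives beside other pseudocounts, filters and scalings, libraries left out, the labelled week and a replicate block. The fit was tested on simulated reads in which few genes changed, rising or falling at random. That test cannot speak to the scaling, since 63.1% of the genes tested were called here. Within groups, Pearson r across genes was 0.983 to 0.987 (fetal) and 0.970 to 0.988 (postnatal).

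Of 219 list entries 198 were matched, older symbols through RefSeq GRCr8, also the source of the promoter windows; 94 of 106 members had one. Values in each library are given for fixed genes and for the largest rise and fall of each role group; others were named after their values were seen. The members and lists were chosen with earlier results of these data known.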

Additional observations from a re-analysis of the deposited data

How the results depend on the processing

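Of 78 members called, 61 kept call and direction under all 20 alternatives, 17 lost the call under some and 0 changed direction. Scaling mattered most, and its cause was not tested. With equal column sums, 4 members and 1780 of all genes were called higher, and 0 genes of the proteasome partner list and 0 of the chaperonin partner list. The median log2 fold changes there were -1.37 (constitutive proteasome), -1.57 (alpha ring), -1.38 (beta ring), -1.39 (19S ATPases), -1.21 (non-ATPases), -1.32 (assembly chaperones), -0.12 (immunoproteasome and PA28), -1.52 (CCT), -1.21 (mitochondrial chaperones), -0.85 (HSP70), -0.79, -0.014 and -0.33 (DnaJ types A, B and C) and -0.69 (DnaJ of the endoplasmic reticulum). Scaled without the 20 highest genes, where the median of all genes was 0.21, the same groups had -0.79, -0.98, -0.79, -0.80, -0.63, -0.76, 0.47, -0.93 and -0.61 down to the mitochondrial chaperones, then 0.54 and 0.20 (DnaJ types B and C) and -0.10 (endoplasmic reticulum). With equal upper quartiles the medians that moved were -0.74 (non-ATPases), 0.35 (immunoproteasome and PA28), 0.40 and 0.10 (DnaJ types B and C). The type B median was 0.14 with pseudocount 5, 0.38 with edgeR and 0.38 with DESeq2, and 0.24 to 0.34 leaving out 1 library; that of type C was -0.11 to 0.031 leaving out 1. The chaperonin partner riser Bbs10 was not called without a filter, with the replicate block, with the week as covariate, without fetal replicate 2 and postnatal replicate 1 together, and in 5 of 6 leave-one-out fits (0 to 1 gene). The heat shock factor list had 2 risers without a filter, without the 20 highest genes and with equal upper quartiles. Genes that did not pass the test and changed sign were Hsph1 (0.13 without the 20 highest genes, 0.021 with equal upper quartiles, 0.078 without fetal replicate 2 and postnatal replicate 1, -0.26 to 0.18 leaving out 1), Dnajc3 (0.11 without the 20 highest genes, -0.35 to 0.037 leaving out 1), Dnajc1 (0.044) and Psmf1 (0.062) without the 20 highest genes, Psme1 (-0.21), Psme2 (-0.12) and Dnajc5 (-0.29) with equal column sums, Dnajc30 (0.18 without the 20 highest genes, 0.077 with equal upper quartiles, -0.16 to 0.042 leaving out 1) and Dnajc5 (-0.027 to 0.13 leaving out 1). Same-numbered libraries did not deviate together (r = -0.21, 0.10 and -0.25), and the main fit used no pairing. With so few libraries these values cannot exclude a batch shared by number. With the replicate block 12 members rose and 60 fell. Depth limits the members under 1 scaled CPM.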
